A study of Mus musculus with 34 samples.

Results

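The genes described are those of 3 families of zinc proteases and of their inhibitors, measured in the distal colon of mice with recurrent TNBS colitis. A probe was a member when its symbol in the platform annotation began with Mmp, Adam or Adamts and a digit, or was one of Timp1 to Timp4, so no measured value entered the choice. This gave 101 probes of 67 genes, among 25697 probes of 16593 named genes on the Illumina mouse bead array. The Mmp family had 27 probes of 20 genes, the Timp family 6 probes of 4 genes, the Adam family 50 probes of 29 genes and the Adamts family 18 probes of 14 genes.

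TNBS is a hapten that, given rectally in ethanol, evokes an immune reaction in the colon wall. Female BALB/c mice, 8 weeks old, received TNBS on the skin on day 0 and rising rectal doses on days 7, 14 and 21. Colons were taken 2 days after an instillation (days 9, 16 and 23) or 7 days after it (days 14, 21 and 28), with 5 mice on each day and 1 array per mouse, besides 4 healthy mice of the same strain. Each mouse was sampled once. The study describes colons taken ahead of the first rectal dose, but whether the healthy mice had been sensitized or given ethanol is not given in the sources used here, so the hapten and its vehicle cannot be told apart. The model is of bulk distal colon, and in bulk tissue a change in the number of cells of a type and a change of RNA per cell cannot be told apart.

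Matrix metalloproteinases (MMPs) are made as inactive proenzymes and, once cleaved, digest collagens, gelatin, elastin, proteoglycans and a range of cytokines. Tissue inhibitors of metalloproteinases (TIMPs) bind the active site and block it. ADAMs are mostly membrane proteins, several of which release the outer part of other membrane proteins such as TNF or the ligands of the EGF receptor, and ADAMTS enzymes are secreted and cut matrix proteoglycans such as versican and aggrecan. In the gut, these enzymes are known from ulcers and from the remodelling of the wall in inflammatory bowel disease.

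Values are log2 signals that the authors had quantile normalized. The background of an array was read from 1326 probes of genes for chemosensory receptors (olfactory, vomeronasal, trace amine), which colon is not known for, and set at their 95th percentile, a linear signal of 22.3 to 30.4. Of the 101 member probes, 18 were above background in all 34 arrays and 36 in none. Of the 50 Adam probes, 22 were never above background, among them those of the sperm proteins Adam2 and Adam3. For tests, signals under a linear 5 were set to 5 (2.32 on the log2 scale), and the 81 member probes of 54 genes with a signal above 5 in at least 4 arrays entered 1 limma fit of all 7 groups, with Benjamini-Hochberg adjustment over 21110 probes for each comparison. A change passed the test at an adjusted p under 0.05.

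Of the colon epithelium markers, 5 of 8 were measured, with Cdh1, Krt8, Krt20 and Vil1 above background in 34 of 34 arrays and Slc26a3 in 18. Of the 6 smooth muscle markers, 5 were above background in 34 arrays and Cnn1 in 25. Markers of other tissues stood over 3 log2 units above the healthy mean in single libraries. This held for skeletal muscle in 5 arrays (day 9 mice 2, 3 and 5, day 14 mouse 5, day 21 mouse 5), for pancreas in 4 arrays (day 21 mice 2 and 3, day 23 mice 1 and 3) and for squamous epithelium in 3 arrays (day 9 mice 4 and 5, day 14 mouse 4). Where removing one of these sets of arrays made or ended a call of a member described here, the value without them stands beside it.

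Soon after an instillation, a small set of members was higher than a week after it. Over the 3 rounds together, 14 member probes of 11 genes were higher 2 days than 7 days after an instillation, against 5.68% of all tested probes that changed, 2.96% higher and 2.72% lower. These were 17.3% of the 81 member probes tested, and no member was lower as fitted. Under some alternatives Adam23 passed as lower, as given below. By family they were 8 of 22 Mmp probes (Mmp3, Mmp9, Mmp10, Mmp12, Mmp13 and Mmp14), both Timp1 probes, 3 of 15 Adamts probes (Adamts1, Adamts4 and Adamts5) and 1 of 38 Adam probes (Adam9). The median change of the 81 member probes was 0.06, beside -0.02 for all probes tested.

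Timp1, an inhibitor that acute inflammation induces in many tissues, was higher at 2 than at 7 days on both of its probes. Its probe ILMN_2769918 gave 9.50, 9.53, 10.05, 8.83 and 11.55 on day 9, 8.52, 8.72, 8.93, 8.45 and 8.42 on day 16, and 11.55, 9.12, 9.56, 8.79 and 9.87 on day 23. The corresponding values a week after each instillation were 6.72, 6.52, 7.08, 7.08 and 7.61 on day 14, 6.40, 6.88, 10.11, 7.05 and 6.61 on day 21, and 7.07, 7.05, 6.62, 7.0 and 6.74 on day 28. With day 21 mouse 3 included, 2 of the 15 2-day mice lay above every 7-day mouse, and with that mouse set aside all 15 did. The difference was 2.32 ± 0.30 on the log2 scale (SE, 15 and 15 mice, limma adjusted p = 1.2e-05), a 5.00-fold higher signal. The second probe, ILMN_3103896, differed by 2.22 ± 0.30 (adjusted p = 1.6e-05).

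Mmp10 (stromelysin 2) and Mmp3 (stromelysin 1), relatives that digest proteoglycans and fibronectin and activate other MMPs, were also higher at 2 than at 7 days. Mmp10 averaged 8.83 ± 1.54 at 2 days and 6.30 ± 1.02 at 7 days after an instillation (SD, n = 15 each), a difference of 2.53 ± 0.37 (SE, adjusted p = 4.2e-05). Its 2-day mice ran from 6.61 to 12.51 and its 7-day mice from 5.31 to 9.38, so the groups overlapped. All 3 probes of Mmp3 passed, with differences of 2.02 ± 0.26, 1.80 ± 0.26 and 1.29 ± 0.30 (SE, adjusted p = 1.1e-05, 4.3e-05 and 0.0092).

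Mmp12 (macrophage elastase) was detected almost only soon after an instillation. It was above background in 13 of 15 mice at 2 days and in 1 of 15 mice at 7 days, day 21 mouse 3. Its means were 6.21 ± 1.62 and 3.38 ± 0.88 in the 2-day and 7-day mice (SD), a difference of 2.83 ± 0.42 (SE, adjusted p = 7.6e-05).

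Mmp9 (gelatinase B), which neutrophils store in granules, averaged 7.99 ± 0.82 in the 2-day mice and 6.08 ± 0.81 in the 7-day mice (SD, n = 15 each). The difference was 1.90 ± 0.26 (SE, adjusted p = 2.3e-05). Mmp13 (collagenase 3), the main interstitial collagenase of mice, differed by 1.39 ± 0.32 on probe ILMN_2737685 (adjusted p = 0.0076). Its other probes, above background in fewer arrays, differed by 0.95 ± 0.40 (ILMN_1249336, adjusted p = 0.18) and 0.32 ± 0.35 (ILMN_2799267, adjusted p = 0.70). Mmp14, a membrane-anchored MMP that activates the Mmp2 proenzyme, differed by 0.33 ± 0.07 (adjusted p = 0.0068), a 1.26-fold higher signal, with 0.27 and adjusted p = 0.067 without the 5 arrays with skeletal muscle markers.

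**Figure D1:**
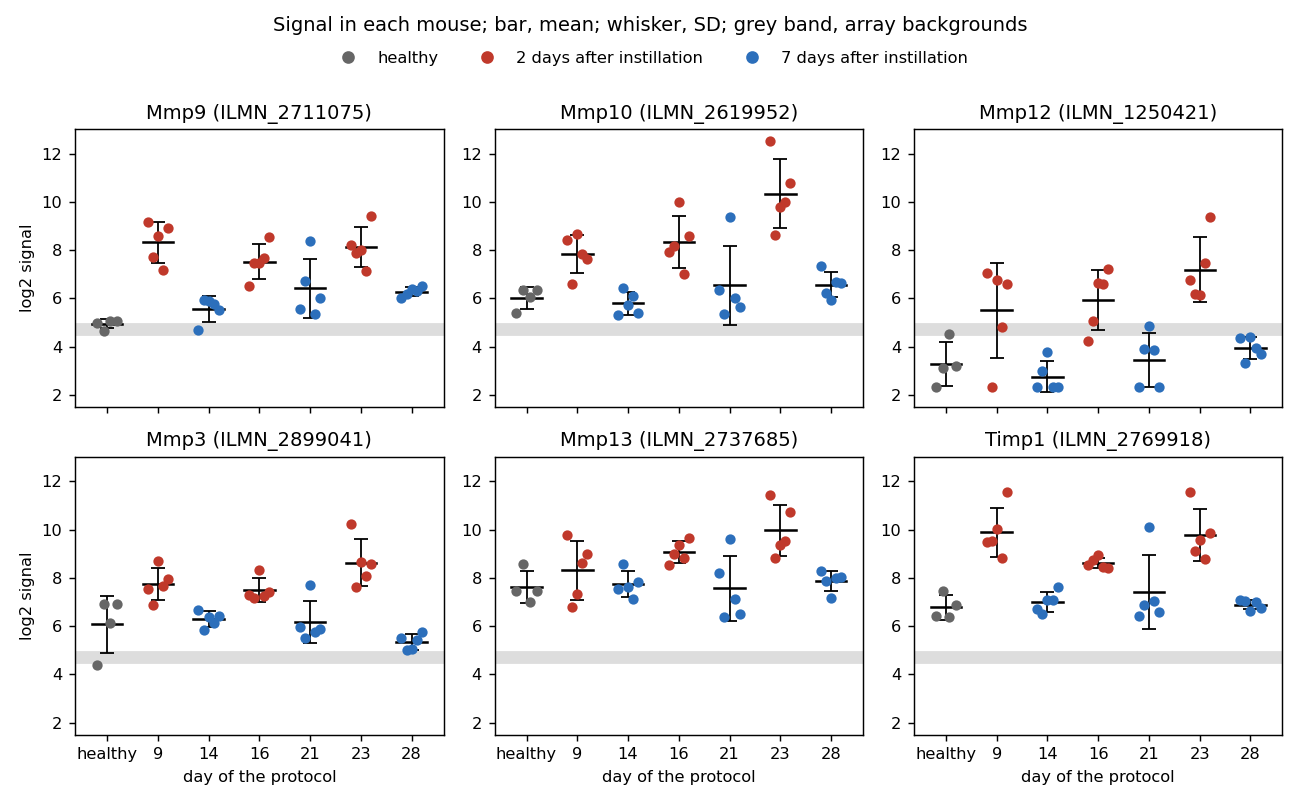
Log2 signal of 6 member probes in each of 34 mice by day of the protocol, with points for mice, horizontal bars for group means, whiskers for SD and a grey band for the range of array backgrounds. The means of the 2-day groups (days 9, 16 and 23) sit above those of the 7-day groups (days 14, 21 and 28). Single mice can overlap, as in Mmp13 with 6.815 to 9.769 on day 9 and 7.113 to 8.559 on day 14. In Mmp10, Mmp3 and Timp1, day 21 mouse 3 stands apart from the other day 21 mice, as in Timp1 with 10.11 against 6.40 to 7.05.

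Among the members that cut proteoglycans, Adamts4 (aggrecanase 1) averaged 7.99 ± 0.65 at 2 days and 6.83 ± 0.44 at 7 days (SD, n = 15 each), a difference of 1.16 ± 0.21 (SE, adjusted p = 0.00093). Adamts5 (aggrecanase 2) differed by 0.70 ± 0.18 (adjusted p = 0.018), and missed the threshold without the 4 arrays with pancreas markers (0.63, adjusted p = 0.079) or the 3 with squamous markers (0.54, adjusted p = 0.057). Adamts1, another versican-cutting enzyme, differed by 1.14 ± 0.32 (adjusted p = 0.029) and was above background in 4 of 15 mice at 2 days and 0 of 15 at 7 days. These values are of probe ILMN_2761082. Its mean in the 2-day mice, 3.86, lay below the background, so no fold is given, and healthy mice averaged 3.48 against 2.72 in the 7-day mice. The other Adamts1 probe, ILMN_1238495, averaged 2.61 at 2 days and 2.62 at 7 days, was above background in no array and did not pass. The call of ILMN_2761082 was lost on leaving out the muscle, the pancreas or the squamous arrays (adjusted p = 0.13, 0.113 and 0.115) and without day 21 mouse 5 (adjusted p = 0.052).

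Adam9, a widely made membrane protease, averaged 9.20 ± 0.22 at 2 days and 8.75 ± 0.14 at 7 days (SD, n = 15 each), a difference of 0.45 ± 0.06 (SE, adjusted p = 1.4e-05). Of the 2-day mice, 13 of 15 lay above the highest 7-day mouse, at 8.98. The signal was 1.37-fold higher.

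**Figure D2:**
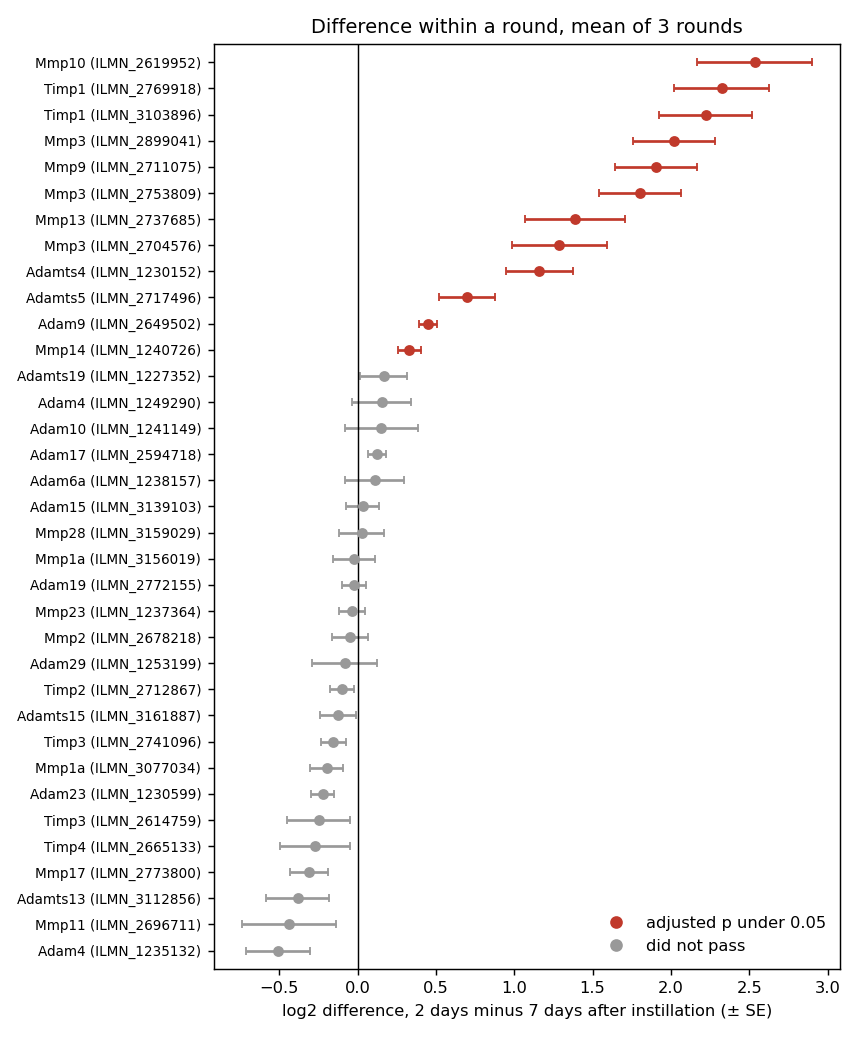
Log2 difference of the mean of days 9, 16 and 23 minus the mean of days 14, 21 and 28, with SE from limma, for the 35 tested member probes above background in 17 arrays or more. The 12 red probes passed the test, from 2.53 for Mmp10 to 0.33 for Mmp14. Mmp12 and Adamts1 also passed but were above background in fewer arrays and are not drawn.

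Against healthy mice, 5, 7 and 14 member probes passed on days 9, 16 and 23, and 0, 1 and 2 on days 14, 21 and 28, all of them higher. On day 9, 5 of the 81 member probes tested (6.17%) were higher and 0 lower, against 2.00% of all tested probes that changed, 1.19% higher and 0.815% lower. On day 14 the count was 0, against 0.459% (0.232% higher, 0.227% lower), with 6 member probes (7.4%) at an unadjusted p under 0.05, beside 10.7% of all tested probes. On day 16 it was 7 (8.64%), against 3.92% (1.98% higher, 1.94% lower). On day 21 it was 1 (1.23%), against 0.701% (0.327% higher, 0.374% lower). On day 23 it was 14 (17.3%), against 7.01% (3.49% higher, 3.51% lower). On day 28 it was 2 (2.47%), against 1.26% (0.720% higher, 0.535% lower). The 6 comparisons share the 4 healthy mice, so their counts are not independent of each other. On leaving out any 1 mouse the day 16 count was 3 to 5, and with only the groups compared in the fit the counts on days 9, 16 and 23 were 1, 4 and 6.

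Mmp9 passed on all 3 of the 2-day days. Its signals were 9.16, 7.73, 8.59, 7.17 and 8.93 on day 9, 6.51, 7.48, 7.45, 7.66 and 8.52 on day 16, and 8.19, 7.90, 8.0, 7.12 and 9.43 on day 23, against 4.97, 4.67, 5.07 and 5.05 in healthy mice. No mouse of these days overlapped the healthy mice. The log2 changes were 3.38 ± 0.48, 2.59 ± 0.48 and 3.19 ± 0.48 (SE, 5 and 4 mice, limma adjusted p = 0.00025, 0.0028 and 0.00016), or 10.4-, 6.0- and 9.12-fold. A week after an instillation the changes were 0.62, 1.48 and 1.34 on days 14, 21 and 28, and none of these passed as fitted. Every day 21 and day 28 mouse lay above the healthy mice (5.37 to 8.38 and 6.0 to 6.51). With only day 28 and healthy mice in the fit, the day 28 change passed (limma adjusted p = 0.0042).

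Adamts4 also passed on days 9, 16 and 23. It gave 7.74, 7.36, 8.62, 7.47 and 8.58 on day 9 and 9.95, 7.86, 8.02, 7.74 and 8.03 on day 23, against 5.25, 6.95, 6.29 and 4.66 in healthy mice, which did not overlap with either day. The changes on days 9, 16 and 23 were 2.16, 1.91 and 2.53 ± 0.39 (SE, adjusted p = 0.0031, 0.0055 and 0.00020). Without the 5 arrays with skeletal muscle markers, which left 2 day 9 mice, the day 9 change was 1.82 (adjusted p = 0.099). With only the groups compared in the fit, it did not pass on any of the 3 days (adjusted p = 0.19, 0.057 and 0.077).

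Timp1 passed on days 9 and 23 on both probes. With healthy mice at 6.41, 7.47, 6.37 and 6.86 on ILMN_2769918, the changes were 3.11 ± 0.56 on day 9 and 3.00 ± 0.56 on day 23 (SE, adjusted p = 0.0027 and 0.0011), 8.66- and 8.01-fold. On day 16 the change of 1.83 did not pass, while all 5 mice (8.42 to 8.93) lay above the healthy ones. Without the muscle arrays the day 9 change was 2.39 (adjusted p = 0.105) on ILMN_2769918 and 2.39 (adjusted p = 0.113) on ILMN_3103896. The day 16 change on ILMN_2769918 passed without the muscle, the squamous or the pancreas arrays (adjusted p = 0.047, 0.0485 and 0.0034), and that on ILMN_3103896 without the pancreas arrays (adjusted p = 0.0061). With only the groups compared in the fit, both probes missed on day 9 (adjusted p = 0.073 and 0.071), both passed on day 16 (adjusted p = 0.0081 and 0.018) and ILMN_3103896 missed on day 23 (adjusted p = 0.052). On days 14 and 28 its mice overlapped the healthy mice and the changes were 0.22 and 0.12.

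Mmp10 reached its highest signals on day 23, with 12.51, 8.62, 9.79, 9.97 and 10.78, against 5.37, 6.35, 6.04 and 6.34 in healthy mice. The change was 4.31 ± 0.67 (SE, adjusted p = 0.00020), a 19.8-fold higher signal and the largest of any tested member in the 6 comparisons with healthy mice. On day 16 its mice gave 7.93, 8.16, 9.99, 7.0 and 8.58, a change of 2.31 (adjusted p = 0.048) that missed the threshold on leaving out any healthy mouse or any day 16 mouse but mouse 4. The day 16 call was also lost without the muscle or the squamous arrays (adjusted p = 0.056 and 0.064). On day 9 the change of 1.81 did not pass, and it passed without the 4 pancreas arrays, none of which is of day 9 or healthy (adjusted p = 0.040).

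Mmp12 gave 6.74, 6.16, 6.14, 7.48 and 9.38 on day 23, all above background, against 2.32, 3.12, 4.51 and 3.18 in healthy mice, none of which was. The bright group's mean over the background, taken per array as the higher of background and the probe's own signal, puts the day 23 signal at least 5.67-fold higher (adjusted p = 0.0021). On day 16, 4 of 5 mice were above background and the bound was at least 2.41-fold (adjusted p = 0.0496), a call lost without the squamous arrays (adjusted p = 0.060). That call was also lost on leaving out 7 of the 9 mice singly (adjusted p up to 0.172). It was lost too with the floor at 20 or 16 added instead of a floor (adjusted p = 0.088 and 0.061). The same held without the filter, with the mouse number as a block and with only the groups compared in the fit (adjusted p = 0.0535, 0.0534 and 0.085). On day 9, 4 of 5 mice gave 4.80 to 7.03 and mouse 2 gave 2.32. Muscle markers were carried by the array of mouse 2, and also by those of mice 3 and 5, which are among the 4. The day 9 change did not pass with mouse 2 and passed without it (3.01, adjusted p = 0.014).

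Mmp3 and Mmp13 passed on day 23. Mmp3 probe ILMN_2899041 gave 10.23, 7.64, 8.66, 8.08 and 8.57 on day 23, against 4.40, 6.91, 6.11 and 6.92 in healthy mice, a change of 2.55 ± 0.48 (SE, adjusted p = 0.0012). The probe ILMN_2753809 changed by 2.05 (adjusted p = 0.0075, and 0.057 without healthy mouse 1, its lowest healthy mouse), and the third probe, ILMN_2704576, by 1.36, which did not pass. On days 9 and 16, Mmp3 ILMN_2899041 changed by 1.67 and 1.41 (adjusted p = 0.065 and 0.097). Without the pancreas arrays it passed on both days (adjusted p = 0.018 and 0.034) and ILMN_2753809 on day 9 (1.41, adjusted p = 0.027), and ILMN_2899041 also passed on day 9 without day 9 mouse 2 (adjusted p = 0.033) or healthy mouse 2 (adjusted p = 0.046). Mmp13 probe ILMN_2737685 gave 11.43, 8.81, 9.36, 9.52 and 10.71, against 7.48, 8.56, 7.0 and 7.44 in healthy mice, a change of 2.34 ± 0.58 (SE, adjusted p = 0.012). Its probe ILMN_1249336 was above background in 4 day 23 mice and 0 healthy mice, at least 1.67-fold higher (adjusted p = 0.034). That call was lost without day 23 mouse 1 or 5, or without healthy mouse 1, 2 or 3 (adjusted p = 0.070 to 0.099), and without the pancreas arrays (adjusted p = 0.14). With only day 23 and healthy mice in the fit, neither Mmp3 (adjusted p = 0.099 and 0.11) nor Mmp13 (0.083 and 0.13) passed. The third Mmp13 probe changed by -0.31 and did not pass.

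Of the smaller changes on day 23, Mmp14 gave 11.14, 10.71, 10.95, 10.51 and 10.71, against 9.98, 9.94, 10.03 and 9.998 in healthy mice, a 1.76-fold higher signal (0.81 ± 0.14, adjusted p = 0.00038). On day 16 it was 0.59 higher (adjusted p = 0.012), and on day 9 the change of 0.45 did not pass as fitted, but passed without the pancreas arrays and with a trend and robust variance (adjusted p = 0.020 and 0.040). Adamts5 was higher by 1.64 ± 0.33 (adjusted p = 0.0021), with 5 of 5 day 23 mice and 1 of 4 healthy mice above background. On day 16 it was higher by 1.195 (adjusted p = 0.036), a call lost on leaving out day 16 mouse 1, 3, 4 or 5 or healthy mouse 1, 2 or 4 (adjusted p = 0.051 to 0.148), and under 4 other alternatives (adjusted p = 0.050 to 0.125). Adam9 was higher by 0.57 ± 0.11 (adjusted p = 0.0014), with an adjusted p of 0.11 when only day 23 and healthy mice were fitted. Adam8, made by granulocytes and macrophages, was higher by 1.68 ± 0.47 on probe ILMN_1224005 (adjusted p = 0.025), with 5 of 5 day 23 mice and 1 of 4 healthy mice above background, and by 1.14 on ILMN_2756613, which did not pass. The Adam8 call was lost without day 23 mouse 1, 4 or 5 or healthy mouse 1 or 4, and was 1.17 (adjusted p = 0.16) without healthy mouse 1. It was also lost without the pancreas arrays (1.65, adjusted p = 0.058).

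**Figure D3:**
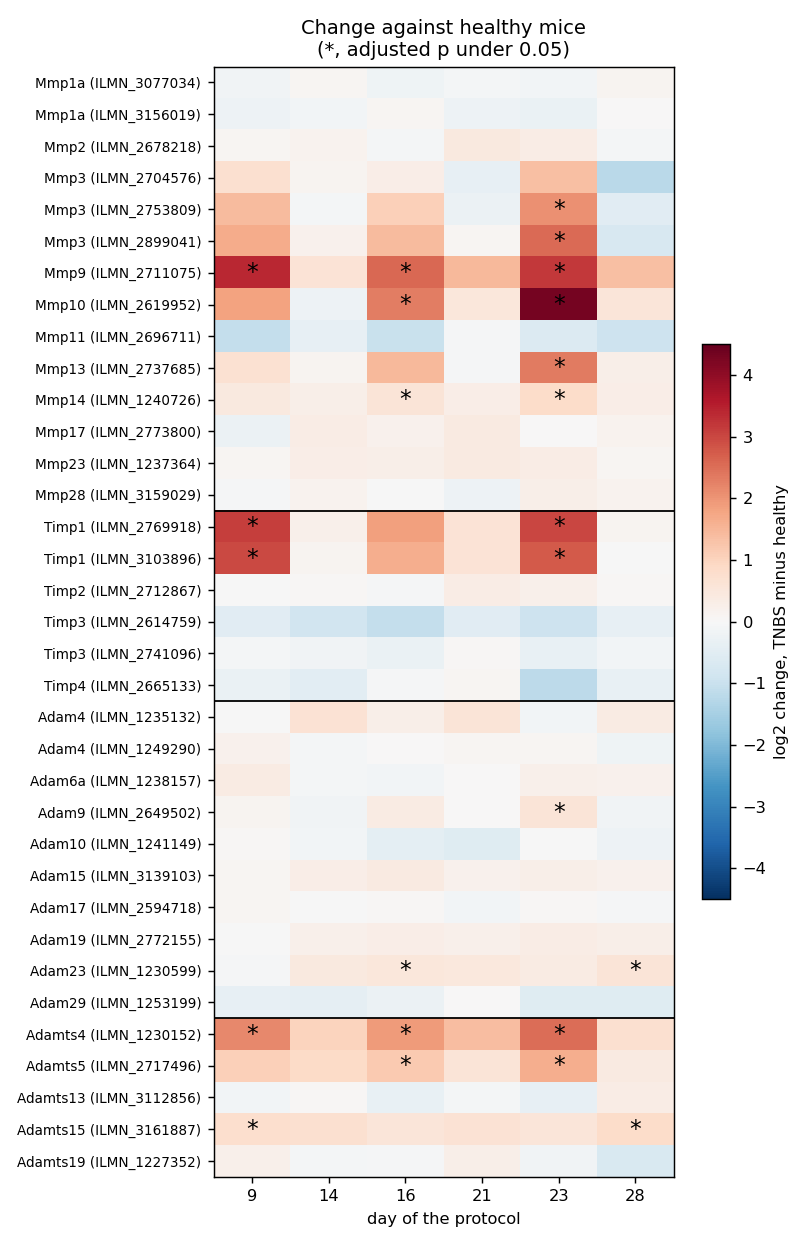
Log2 change against healthy mice on each of 6 days for the 35 tested member probes above background in 17 arrays or more, red for higher and blue for lower in TNBS mice, with a star where the limma adjusted p was under 0.05. Mmp9 and Adamts4 have a star on days 9, 16 and 23, Mmp10 on days 16 and 23 and both Timp1 probes on days 9 and 23, and no probe has a star with a lower signal.

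Adam23 and Adamts15 passed on day 28 and on 1 earlier day each. Adam23, an adhesion protein of the family known mainly from neurons, passed on probe ILMN_1230599 alone. Its probes ILMN_1213123 and ILMN_1242144, above background in 6 and 8 arrays, passed in no comparison. On ILMN_1230599, Adam23 gave 9.22, 9.34, 9.16, 9.66 and 9.53 on day 28, against 8.76, 8.83, 8.73 and 8.86 in healthy mice (0.59 ± 0.13, SE, adjusted p = 0.022). It was also higher on day 16 (0.52, adjusted p = 0.024), while on day 9 the change was -0.04. Between 2 and 7 days it differed by -0.22 ± 0.07 (SE, adjusted p = 0.069), and passed as lower at 2 days without the squamous arrays (-0.29, adjusted p = 0.012) and without day 9 mouse 5 (-0.26, adjusted p = 0.014). With all arrays kept, it passed as lower with the floor at 20, a trend and robust variance or array weights (adjusted p = 0.041 to 0.045). It did so too among only probes above background in 4 arrays or more (adjusted p = 0.045). Its linear trend of 0.17 per week passed without the squamous arrays or day 9 mouse 5 (0.223 and 0.205, adjusted p = 0.0078 and 0.0055). With a trend and robust variance the linear trend passed as well (adjusted p = 0.047). That trend takes in part of the difference between 2 and 7 days, since each 2-day day comes before its 7-day day. On day 21 its change of 0.49 passed without the muscle or the squamous arrays (adjusted p = 0.049 and 0.040), and on day 23 the change of 0.37 passed without the muscle arrays (adjusted p = 0.043). The day 21 change also passed with the floor at 20, a trend and robust variance or array weights (adjusted p = 0.049, 0.042 and 0.035). Adamts15, a versican-cutting enzyme, was higher by 0.77 on day 9 and 0.82 on day 28 (adjusted p = 0.049 and 0.044), and changed by 0.53 to 0.72 on the other days, which did not pass. All these calls were lost on leaving out 1 mouse or another, healthy mouse 1 among them (adjusted p = 0.072 to 0.094). The Adamts15 calls were also lost without the squamous arrays (adjusted p = 0.21 and 0.056) or the muscle arrays (adjusted p = 0.32 and 0.065). The single call on day 21 was Adam34l, with 3.69 to 5.55 in that day's mice and 1 of them above background, against 2.32 to 2.43 in healthy mice. These values are of probe ILMN_3133209. The other Adam34l probe, ILMN_3056397, was above background in no array and was not tested. The call was lost on leaving out 7 of the 9 mice singly and without the pancreas arrays (adjusted p = 0.26), and no fold is given. On day 23 ILMN_3133209 passed without the pancreas arrays (1.615, adjusted p = 0.042) and without day 23 mouse 3, one of them (1.58, adjusted p = 0.038).

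The remaining inhibitors did not pass in any comparison. Timp2, which also takes part in the activation of the Mmp2 proenzyme, averaged 10.75 ± 0.24 at 2 days and 10.86 ± 0.23 at 7 days (SD, n = 15 each), and 10.71 ± 0.09 in healthy mice (n = 4). Timp3, which is bound to matrix and also blocks Adam17, changed by -0.32 (ILMN_2741096) and -0.93 (ILMN_2614759) on day 23 (adjusted p = 0.20 and 0.13). Timp4 changed by -1.18 on day 23 (adjusted p = 0.084).

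Several other enzymes showed no change past the test on any day. Mmp2 (gelatinase A) averaged 10.63 ± 0.40 in the 2-day mice and 10.68 ± 0.33 in the 7-day mice (SD), a difference of -0.05 ± 0.11 (SE), above background in 34 arrays. Adam17, the enzyme that sheds TNF, averaged 9.30 ± 0.17 and 9.18 ± 0.11, a difference of 0.12 ± 0.06 (SE, adjusted p = 0.25). Adam10, a sheddase of Notch and cadherins, lay near background (above it in 23 of 34 arrays) and differed by 0.15 ± 0.23. Mmp17, Mmp23 and Mmp28 also did not pass. Mmp11 (stromelysin 3) was above background in 14 of 30 TNBS mice and 4 of 4 healthy mice, with changes between -1.07 on day 9 and -0.06 on day 21 that did not pass.

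Whether the response grew or shrank from the first to the third instillation was asked of the difference between 2 and 7 days. That in the first round (days 9 and 14) was taken from that in the third (days 23 and 28). The dose rose and the mice aged between these rounds, so repetition, dose and age cannot be told apart. By limma, 0 members passed, against 0.0805% of all tested probes (0.0284% higher, 0.0521% lower), and 8 (9.9%) had an unadjusted p under 0.05, beside 8.0% of all tested probes. The values were 1.83 ± 0.64 and 1.95 ± 0.74 for Mmp3 on ILMN_2899041 and ILMN_2704576, 1.72 ± 0.90 for Mmp10 and 1.51 ± 0.78 for Mmp13, and -0.90 ± 0.65 for Mmp9 and -0.01 ± 0.75 for Timp1 (SE, adjusted p = 0.42 or more). A linear trend over days 9 to 28 had 0 members past the limma threshold too, against 0.175% (0.0711% higher, 0.104% lower), with 10 (12.3%) at an unadjusted p under 0.05, beside 8.1% of all tested probes. In each round the 2-day day comes before the 7-day day, so this trend takes in part of the difference between 2 and 7 days. The 2 cannot be told apart in it. Timp1 changed by -0.57 and -0.58 per week on its probes, while ILMN_2769918 averaged 9.89 on day 9 and 9.78 on day 23. Both passed without day 21 mouse 3 (-0.618 and -0.625, adjusted p = 0.030 and 0.029). Without the 4 arrays with pancreas markers, 3 member probes passed, both of Timp1 (-0.692 and -0.704) and Mmp3 on ILMN_2899041 (-0.561, adjusted p = 0.034).

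The genes of Mmp13, Mmp12, Mmp1b, Mmp3, Mmp1a, Mmp10, Mmp8, Mmp27, Mmp20 and Mmp7 follow each other in this order on mouse chromosome 9, with no other protein-coding gene between them in the RefSeq table of GRCm38.p6. Mmp13, Mmp12, Mmp3 and Mmp10 were higher 2 days after an instillation on at least 1 probe each. Between Mmp3 and Mmp10 lies Mmp1a, an interstitial collagenase, whose probes were above background in 34 and 33 arrays and differed by -0.20 ± 0.10 and -0.02 ± 0.13 (SE, adjusted p = 0.32 and 0.96). The Mmp1b and Mmp8 probes were above background in no array and were not tested, the Mmp20 probe in 1 array, and no member probe was annotated to Mmp27.

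**Figure D4:**
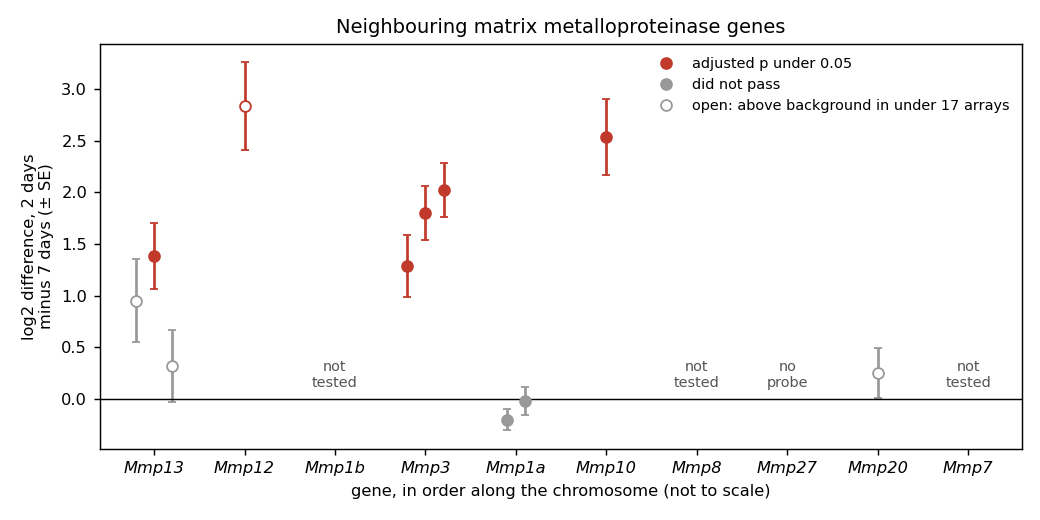
Log2 difference, 2 days minus 7 days after instillation, with SE from limma, for the probes of 10 neighbouring Mmp genes in their order along the chromosome (not to scale). Mmp13, Mmp12, Mmp3 and Mmp10 have probes past the test (red), and Mmp1a, between the genes Mmp3 and Mmp10, has both probes near 0.

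The promoters of these neighbours are shown because members past the test and a neighbour that did not pass can be set side by side. They run from 100 bases before to 20 bases after the start of transcription, from RefSeq in GRCm38.p6, on the plus strand. Capitals mark TGANTCA, the core that AP-1 (Fos and Jun) binds and that reads the same on both strands, and TATAAA.
Mmp13, chr9:7272414-7272533: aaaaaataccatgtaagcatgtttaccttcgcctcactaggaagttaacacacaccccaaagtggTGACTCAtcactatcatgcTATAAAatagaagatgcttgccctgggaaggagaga
Mmp12, chr9:7347274-7347393: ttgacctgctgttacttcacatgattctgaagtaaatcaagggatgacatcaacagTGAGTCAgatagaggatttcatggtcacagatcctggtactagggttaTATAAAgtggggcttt
Mmp3, chr9:7445722-7445841: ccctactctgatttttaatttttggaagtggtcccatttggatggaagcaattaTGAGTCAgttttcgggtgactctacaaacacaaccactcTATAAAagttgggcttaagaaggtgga
Mmp1a, chr9:7464041-7464160: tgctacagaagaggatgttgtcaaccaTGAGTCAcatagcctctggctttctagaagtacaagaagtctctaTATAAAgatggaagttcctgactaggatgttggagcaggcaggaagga
Mmp10, chr9:7502242-7502361: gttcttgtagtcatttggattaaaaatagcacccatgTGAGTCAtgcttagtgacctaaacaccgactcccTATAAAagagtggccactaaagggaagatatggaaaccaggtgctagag

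Each of the 5 windows held 1 TGANTCA, which began 35 bases before the annotated start in Mmp13, 44 in Mmp12, 46 in Mmp3, 73 in Mmp1a and 63 in Mmp10. Mmp12 has a further annotated start whose window held none. Mmp1a, whose signal did not pass in any comparison, carried the same letters, TGAGTCA, as Mmp3, Mmp10 and Mmp12. In windows of 300 bases, from 250 before to 50 after the start, TGANTCA was in 7.81% of 32851 windows of all genes and in 28.9% of 45 windows of the 40 member genes with an entry. It was in 8 of 18 windows of Mmp genes. TATAAA, searched on both strands, was in 13.6% of all windows and 31.1% of member windows, and did not overlap TGANTCA in the windows shown. A match of letters is a description and no measure of binding.

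Around these families, genes fixed in lists for the same system were tested in the same fit. Of the plasminogen activation list (7 of 10 genes tested), the activator Plau was higher on days 16 and 23 (0.80 and 0.83, adjusted p = 0.0026 and 0.00073) and its receptor Plaur on day 23 (1.55, adjusted p = 0.00064). Both were higher at 2 than at 7 days (0.39 and 0.97, 2 of the 7 genes tested, against 2.96% of all tested probes), and the list's median difference was 0.16, beside -0.02 for all probes tested. Plasmin, which Plau releases, is known to cleave several MMP proenzymes.

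Of other regulators (15 of 23 tested), 1 was higher at 2 than at 7 days, against 2.96% of all tested probes, and the list's median difference was 0. It was Lcn2 (3.04, adjusted p = 0.011), whose human counterpart is known to form a complex with human MMP9. Tspan14, a partner of Adam10, was higher on days 16 and 23 (0.45 and 0.48). Of sheddase substrates (12 of 16 tested), Tnf was higher at 2 than at 7 days (1.68, adjusted p = 0.015) and Btc lower (-0.32, adjusted p = 0.043). These were 1 higher and 1 lower of 12, against 2.96% and 2.72% of all tested probes, with a list median of 0.10. Hbegf was higher on day 23 (1.03), and Notch1 on days 9, 16, 21, 23 and 28 (0.68 to 0.94). Of other matrix proteases (12 of 14 tested), the brush border metalloproteases Mep1a and Mep1b were lower on day 16 (-1.28 and -0.66, adjusted p = 0.021 and 0.017) and day 23 (-1.50 and -0.97, adjusted p = 0.0037 and 0.00032). Mep1b was also lower on day 28 (-0.78) and Mep1a at 2 than at 7 days (-0.59). Between 2 and 7 days, 2 of these 12 proteases were higher and 1 lower, against 2.96% and 2.72% of all tested probes. Their median difference was -0.03. The lysosomal cathepsin Ctsb was higher on day 23 (0.44) and, with Ctsl, at 2 than at 7 days (0.33 and 0.64), and the mast cell protease Mcpt4 was higher from day 14 on (3.82 to 6.16).

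Matrix substrates (17 of 18 tested) were higher in 0 members on day 9, 6 on day 16 and 8 on day 23, against 1.19%, 1.98% and 3.49% of all tested probes, with 0 lower on these days. On day 23 they were Col1a1 (1.31), Col3a1 (0.99), Col4a1 (1.02), Col4a2 (0.97), Lama1 (2.19), Bgn (0.45), Tnc (0.98) and Nid1 (0.49). The list's median change on day 23 was 0.45, beside -0.02 for all probes tested. Between 2 and 7 days, 5 were higher and 1 lower, against 2.96% and 2.72% of all tested probes. The lower one was Eln, elastin (-0.42, adjusted p = 0.0053).

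Neutrophil markers had higher group means on days 9, 16 and 23 than on the other days, while the day 16 range overlapped that of healthy mice. The mean log2 level of the 7 listed markers, all measured, ran from 3.47 to 4.85 in healthy mice, 5.70 to 8.13 on day 9, 3.92 to 6.09 on day 14, 4.27 to 6.49 on day 16, 3.23 to 7.15 on day 21, 4.99 to 8.18 on day 23 and 3.59 to 4.64 on day 28. Of these, 3 of 7 were higher at 2 than at 7 days, against 2.96% of all tested probes, and Cxcr2 and Camp were each above background in 5 of 34 arrays. Against healthy mice, 2 of 7 were higher on day 9, 0 on day 16 and 2 on day 23, against 1.19%, 1.98% and 3.49% of all tested probes. Macrophage markers (7 of 9 measured) differed from the healthy mean by -0.17 to 0.33 in the group means, with 2 of 7 higher at 2 than at 7 days, and Itgam was above background in no array. Fibroblast markers (7 of 7 measured) differed by -0.02 to 0.50, with 0 of 7 past the test between 2 and 7 days. Against healthy mice, 0, 2 and 2 of 7 fibroblast markers were higher on days 9, 16 and 23, and 0, 0 and 1 of 7 macrophage markers. Of 6 smooth muscle markers, 2 were lower at 2 than at 7 days, against 2.72% of all tested probes. Mast cell markers (5 of 6 measured) were all higher on days 16, 21, 23 and 28, against 1.98%, 0.327%, 3.49% and 0.720%. The part of these cells in the members' changes was not tested.

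A few mice carried the highest signals across members. Of the 14 probes (11 genes) described mouse by mouse, day 21 mouse 3 was the highest of its day in 11 probes and day 23 mouse 1 in 10. Their neutrophil markers stood 3.16 and 4.20 above the healthy mean, and their pancreas markers 6.26 and 5.58. Without the 4 arrays with pancreas markers, 12 member probes were higher at 2 than at 7 days, and 13 were changed on day 23.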

How the data were processed

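Distal colon RNA of 34 mice was hybridised to Illumina mouse bead arrays, 1 per mouse. As the methods have it, signals were background-subtracted and quantile normalized, and the authors deposited log2 values of 25697 probes with medians per array of 4.77 to 4.78. The log2 scale was inferred from the values. The labels name GenomeStudio and RNeasy columns, the methods BeadStudio and Nucleospin columns. Non-normalized signals in 68 columns named by chip position are not paired with mice and were not used, so depth per probe (bead counts, detection p-values) is unknown here. Symbols come from the platform annotation, and all 101 member probes matched RefSeq.

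Groups were those of the labels. R 4.3.3 and limma 3.58.1 (lmFit, eBayes) were run on values floored at a linear 5, in 1 fit of 7 groups with 27 residual degrees of freedom, with Benjamini-Hochberg adjustment within each comparison, after a test on simulated data. The methods name limma, the floor and the removal of unexpressed probes. The fit was repeated with the floor at 20, with 16 added in its place, without the filter, with other variance models and array weights, with the mouse number as a block, on the groups compared alone, and with arrays left out. The removal of pancreas and of squamous arrays and the filter on background were chosen after seeing the data.

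Described mouse by mouse were up to 14 probes, first those past the test against healthy mice on at least 2 days by size of change, then those past it between 2 and 7 days, and Timp1. Mmp2, Mmp3, Mmp7, Mmp9, Mmp12 to Mmp14, Timp2 to Timp4, Adam8, Adam10, Adam17, Adamts1, Adamts4 and Adamts5 were named whatever their result, and other members past the test were added with their values seen. Members and lists were chosen with earlier results of these data known. Matched promoters (40 of 67 genes) are from RefSeq, GRCm38.p6. The ADAMs were not split by their zinc-binding motif, since proteins were not used here.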

Additional observations from a re-analysis of the deposited data

Results flagged for a closer look

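In 10 of 98 sets of mice (14 probes in 7 groups), 1 mouse lay far from the others of its group by Dixon's test, and chance gives about 1 in 20. Of these, 5 were day 21 mouse 3. It gave 9.38 for Mmp10, against 5.37 to 6.33 in the other 4 mice of that day, 10.11 and 10.34 for the Timp1 probes, against 6.40 to 7.05 and 6.55 to 7.38, and 7.72 and 7.25 for Mmp3 on ILMN_2899041 and ILMN_2753809, against 5.52 to 5.98 and 4.52 to 5.27. Day 23 mouse 1 stood out with 9.95 for Adamts4, against 7.74 to 8.03, and 8.30 for Mmp3 on ILMN_2704576, against 5.64 to 6.35. Mmp3 also stood out in day 16 mouse 3, with 8.35 and 7.71 on ILMN_2899041 and ILMN_2753809 against 7.15 to 7.42 and 6.43 to 6.54, and in day 14 mouse 1, with 6.32 on ILMN_2753809 against 5.32 to 5.44.

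Mmp7 (matrilysin), made by Paneth cells and by injured epithelium, was too rarely above the floor to be tested. It gave 5.77 in day 23 mouse 1 and 4.84 in day 23 mouse 5, both above background, and 2.32 in 4 of 4 healthy mice.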

How the results depend on the processing

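The alternatives that keep all arrays rest on 4 or 5 mice a group, and those that leave arrays out on fewer in some groups. Without the muscle arrays, 2 day 9 mice were left. Probes near background carry little information. Counts of member probes past the test that moved by over 1.5 times were these. With only the groups compared in the fit, 1 on day 9, 4 on day 16, 0 on day 21, 6 on day 23 and 1 on day 28 passed (5, 7, 1, 14 and 2 as reported), with fewer residual degrees of freedom by construction. With a trend and robust variance, 2 passed on day 21 and 1 in the linear trend (0 as reported). Array weights gave 11 on day 16 and 3 on day 21. Without the 5 skeletal muscle arrays, 2 passed on day 9, 2 on day 21, 1 on day 28 and 1, lower, in the third minus the first round (0 as reported). Without the pancreas arrays, 9 passed on day 9, 0 on day 21 and 3, all lower, in the linear trend. Without the squamous arrays, 2 passed on day 21, 1 on day 28 and 1 in the linear trend. No floor and only probes above background in 4 arrays or more each gave 0 on day 21. The cause was not tested.

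With the mouse number as a replicate block, 0 passed on day 21, and no other count moved by over 1.5 times. Same-numbered mice of different groups did not deviate together (mean r 0.008, -0.132 to 0.152 over 99 pairs), and 10 of 34 arrays correlated best with their own number.

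Leaving out 1 mouse at a time gave 4 to 7 on day 9, 0 to 0 on day 14, 3 to 5 on day 16 (3 without day 16 mouse 5 or healthy mouse 1, 4 without day 16 mouse 1, 2 or 3 or healthy mouse 4), 0 to 1 on day 21 (0 without day 21 mouse 2, 3 or 5 or healthy mouse 1, 3 or 4), 11 to 16 on day 23, 0 to 2 on day 28 (0 without day 28 mouse 4 or healthy mouse 1 or 3, 1 without day 28 mouse 1, 2 or 5 or healthy mouse 4), 13 to 15 between 2 and 7 days, 0 to 2 in the linear trend (2 without day 21 mouse 3, 1 without day 9 mouse 5) and 0 to 0 in the third minus the first round. No change of a named member that passed as reported took the opposite sign under any alternative run.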
